A study of Sus scrofa with 35 samples.

Results

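The transcripts described here are the erythroid transcription factors, the DNA-binding proteins, their cofactors and the erythropoietin receptor that drive the maturation of red blood cells. They were measured in whole blood of growing pigs kept in a thermoneutral climate (TN) or exposed to heat stress (HS). The set was fixed by gene symbol as 10 genes: GATA1, KLF1, TAL1, NFE2, GFI1B, LMO2, ZFPM1, MXI1, FOXO3 and EPOR. Probes carrying 8 of the 10 symbols were found on the custom porcine expression array, and TAL1 and ZFPM1 had no probe under their symbols. These 8 genes were covered by 22 of the 60305 distinct probes of the array, and all 22 were among the 39072 probes of the normalised table.

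The blood of 35 castrated male pigs was hybridised, 1 pig per 1-colour array. By breed they were Creole (CR), Large White (LW) or the cross between both (F1), and 17 pigs were TN and 18 were HS. CR TN held 5 pigs and each of the other groups (CR HS, F1 TN, F1 HS, LW TN and LW HS) held 6. The sample titles gave 24 °C for TN and 30 °C for HS, whereas the treatment protocol gave 32 °C for 5 days. TN pigs were slaughtered before the temperature rise and HS pigs after it, so climate and day of slaughter cannot be told apart. Litters and pens were shared by pigs but were not labelled, so each pig was treated as independent. The SEs and adjusted p values below may therefore be too small. Replicate numbers follow the order of deposition, only name a pig within its group, and pair no pigs.

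Red cells form in the bone marrow from progenitors that respond to erythropoietin through its receptor, EPOR. GATA1 sits at the centre of the programme, in complexes with TAL1 and the bridging protein LMO2 and with the cofactor ZFPM1 (FOG1), while KLF1 activates adult globin and membrane genes. NFE2 is the large subunit of a dimer that acts at globin enhancers, GFI1B is a repressor needed in red cell and platelet precursors, MXI1 is a MAX partner that opposes MYC, and FOXO3 drives antioxidant and late maturation genes. Mature pig red cells have no nucleus, and in blood such transcripts are carried mainly by reticulocytes and by white cells and platelets that use the same factors. In whole blood, fewer cells of a type and less RNA per cell cannot be told apart.

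The probes are 60-base oligonucleotides, and those on which the results turn are shown as listed on the array. The GATA1 probe and the sequence used for both GFI1B probes were:
GATA1 O13836: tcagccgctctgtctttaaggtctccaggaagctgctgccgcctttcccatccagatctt
GFI1B A_72_P437649: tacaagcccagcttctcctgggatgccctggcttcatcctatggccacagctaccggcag
The GFI1B sequence was printed on the array under 2 names, and the second, O8243, is identical over its 60 bases. The GATA1 sequence reads as GATA1 coding sequence on its complementary strand, whereas the GFI1B sequence reads as GFI1B coding sequence as listed. The same holds as listed for EPOR A_72_P441474, KLF1 A_72_P102121, FOXO3 A_72_P440351 and MXI1 A_72_P577004. This was read against the known proteins and was not checked by alignment, because no protein sequence was used here. Whether the GATA1 probe measured the GATA1 transcript was not tested. Counts of genes below include this probe by its symbol alone, and its values are not shown to be those of GATA1.

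The 3 FOXO3 probes are shown because they gave changes of different size, and a pair of MXI1 probes because they are not independent. The capitals mark the 38 bases that the pair shares.
FOXO3 A_72_P375183: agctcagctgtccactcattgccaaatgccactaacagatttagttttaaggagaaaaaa
FOXO3 O5860: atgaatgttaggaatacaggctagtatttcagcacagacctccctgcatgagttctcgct
FOXO3 A_72_P440351: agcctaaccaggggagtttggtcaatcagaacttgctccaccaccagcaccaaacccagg
MXI1 A_72_P395073: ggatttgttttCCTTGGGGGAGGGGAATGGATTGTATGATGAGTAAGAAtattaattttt
MXI1 A_72_P503987: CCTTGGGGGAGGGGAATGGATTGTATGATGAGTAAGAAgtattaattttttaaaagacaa
MXI1 had 9 probes, FOXO3 and KLF1 3 each, GFI1B and EPOR 2 each, and GATA1, NFE2 and LMO2 1 each. The brightest probe of each gene over the 35 pigs was taken to represent it. All probes were well above background on 35 of 35 arrays except KLF1 A_72_P102121, which was so on 22. Levels of different probes are not comparable, since each probe has its own brightness.

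The 75th percentile of the processed intensity of the arrays ranged from 112 to 328.8. It was lower in F1 TN (112 to 186) than in F1 HS (172 to 266), and in the other 4 groups it ranged from 145 to 328.8. The mean log2 level of 16 measured red cell markers, of 28 listed, ranged from 9.99 to 11.79 in F1 TN and from 8.68 to 10.46 in F1 HS. In CR it ranged from 9.68 to 10.96 in TN and from 9.21 to 10.81 in HS, and in LW from 10.14 to 10.91 and from 9.73 to 10.61. The other 12 listed markers had no row in the table under their symbols. The arrays lay on 5 slides. The contribution of brightness and of red cell RNA to the changes below was not tested beyond the fits that include them.

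The members with probes that passed as lower in HS were MXI1, GFI1B, FOXO3 (1 of its 3 probes) and the GATA1 probe. In the model with breed and climate as additive terms, 12 of the 22 probes passed an adjusted p of 0.05 in limma (Benjamini-Hochberg adjustment over all 39072 probes), and all 12 were lower in HS. Of all probes in the table, 34.8% were called and 14.7% were called as lower in HS. The 12 probes came from 4 of the 8 genes and 8 of them were MXI1 probes, which do not count as separate evidence. The median change of the 22 probes was −0.70 on the log2 scale, against 0.06 for all probes, and 21 of the 22 changes were negative. KLF1, EPOR, NFE2 and LMO2 did not pass. With the mean of the red cell markers as a covariate, or without the F1 pigs, 0 of the 22 probes passed in limma. The share of the whole table that passed in these fits is not given here, so the loss is not shown to be particular to the members.

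MXI1, the MAX-binding antagonist of MYC, had the largest additive change among the 22 probes. In CR TN its brightest probe (A_72_P612757) read 10.66, 11.09, 11.76, 12.05 and 12.76 on the log2 scale. In CR HS the lowest, median and highest pigs were at 9.52, 10.98 and 11.58. In F1 TN they were at 11.15, 11.85 and 13.16, and in F1 HS at 9.40, 10.76 and 11.14, so that each F1 HS pig lay below each F1 TN pig, by a margin of only 0.003 between the nearest pair. In LW the TN pigs ranged from 10.63 to 12.09 and the HS pigs from 10.56 to 11.65, and the groups overlapped.

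The additive change of this MXI1 probe was −0.97 ± 0.23 (SE), a fold of 0.51 (adjusted p = 0.0029 by limma). In HS 17 of 18 pigs lay below the TN mean of their breed, 6 of 6 in CR and in F1 and 5 of 6 in LW. The 8 MXI1 probes that passed fell by 0.76 to 1.27, and the ninth, O5683, changed by −0.21 ± 0.10 (adjusted p = 0.081). O5683 passed without CR HS replicate 1, LW HS replicate 1 or LW TN replicate 3, with values of −0.24 or −0.25. The level of O5683 was low (mean 6.51), and another probe of the array with the same 60 bases correlated with it at only r = 0.58 over 35 pigs. The other 7 MXI1 probes followed the brightest at r between 0.89 and 0.97 once group means were removed. Of the 5 slides, 4 held both climates within a breed, and in each of the 4 the change of the brightest MXI1 probe was negative, between −1.34 and −0.60. With the red cell marker mean as a covariate it was −0.43 ± 0.17 (adjusted p = 0.13), and without F1 pigs −0.70 ± 0.26 (adjusted p = 0.22).

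**Figure D1:**
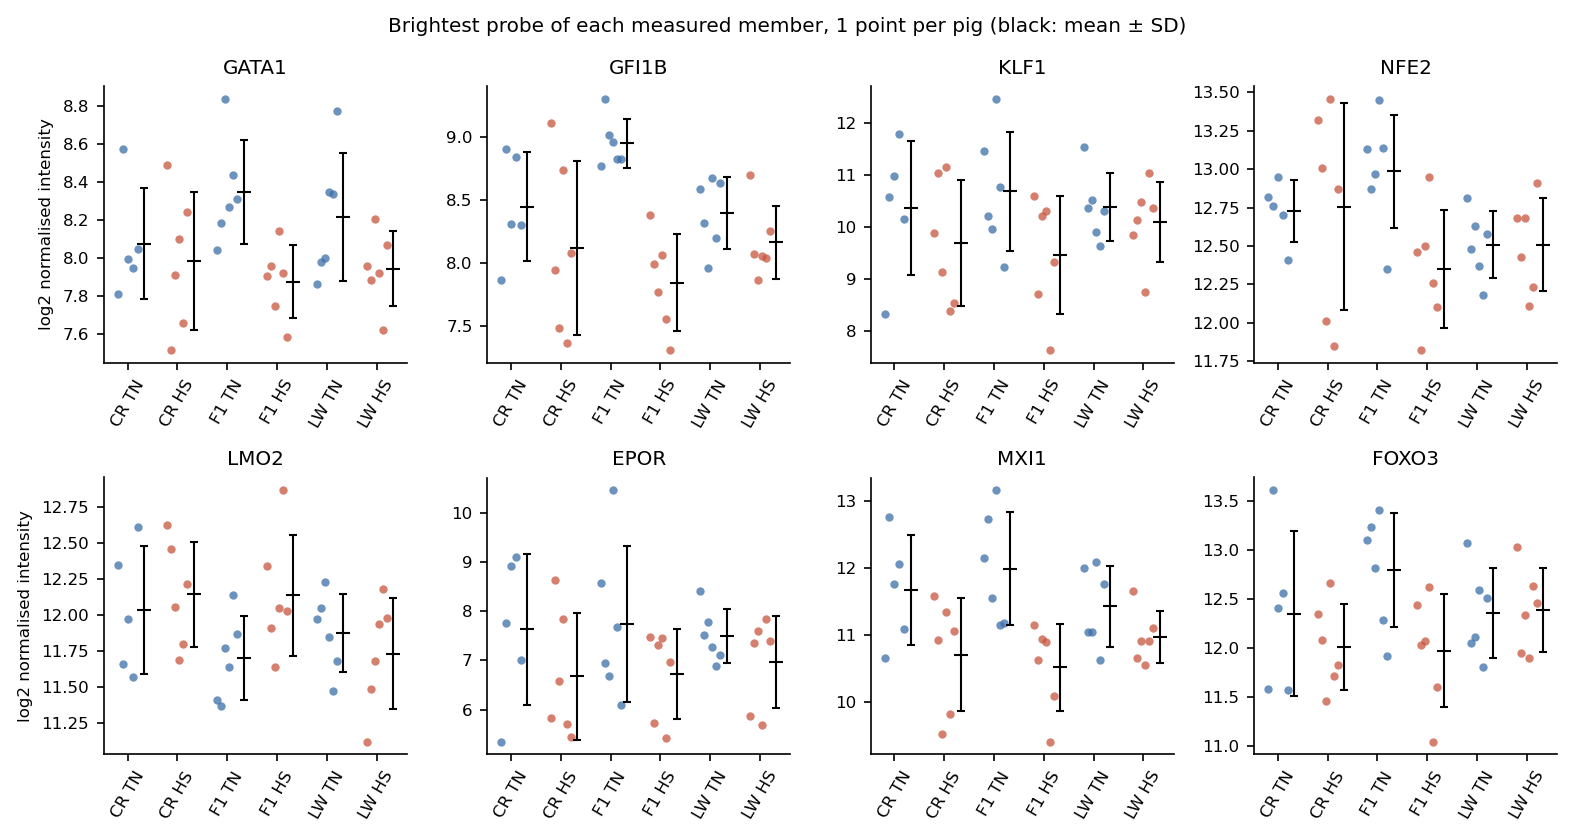
Log2 normalised intensity (vertical axis) of the brightest probe of each gene in each of 35 pigs, by breed and climate (horizontal axis), TN in blue and HS in red, with the group mean and SD in black. In F1 all HS pigs lie below all TN pigs for GFI1B and MXI1, while the groups overlap for the other 6 genes and in CR and LW for all 8.

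GFI1B, the zinc finger repressor of red cell and platelet precursors, was also lower in HS. The CR TN pigs read 7.86, 8.30, 8.31, 8.85 and 8.91 with probe A_72_P437649, and the CR HS pigs ranged from 7.36 to 9.11 with a median of 8.01. The F1 TN pigs lay between 8.77 and 9.31 (median 8.90) and the F1 HS pigs between 7.30 and 8.38 (median 7.88), without overlap. In LW the TN pigs ranged from 7.96 to 8.68 and the HS pigs from 7.87 to 8.70.

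The additive change of GFI1B was −0.56 ± 0.15 (adjusted p = 0.0047 by limma), and 15 of 18 HS pigs lay below the TN mean of their breed. The second print of the same sequence, O8243, changed by −0.47 ± 0.11 (adjusted p = 0.0028). The 2 prints correlated at r = 0.90 over 35 pigs, and their levels differed by 0.74 ± 0.23 (SD), so identical bases were read at different brightness. Within slides the change of A_72_P437649 was negative on 3 of 4, between −0.71 and 0.08. With the red cell marker mean as a covariate it was −0.32 ± 0.14 (adjusted p = 0.17), and without F1 pigs −0.28 ± 0.18 (adjusted p = 0.38).

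The GATA1 probe changed least among those that passed. Its CR TN values were 7.81, 7.95, 7.99, 8.05 and 8.57, and CR HS ranged from 7.52 to 8.49 with a median of 8.00. F1 TN ranged from 8.04 to 8.84 (median 8.29) and F1 HS from 7.58 to 8.14 (median 7.91), with an overlap of 0.10. In LW the TN pigs ranged from 7.86 to 8.77 and the HS pigs from 7.62 to 8.20. The additive change was −0.28 ± 0.10 (adjusted p = 0.022 by limma), and 15 of 18 HS pigs lay below the TN mean of their breed. Within slides the change was negative on 3 of 4, between −0.30 and 0.09. It no longer passed without LW pigs (adjusted p = 0.075), without F1 pigs (adjusted p = 0.40), with array brightness as a covariate (adjusted p = 0.14) or with the red cell marker mean (adjusted p = 0.13).

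KLF1, the activator of adult globin and red cell membrane genes, varied more between pigs than between climates. With probe O11579 the CR TN pigs read 8.33, 10.15, 10.57, 10.98 and 11.79, and the CR HS pigs ranged from 8.40 to 11.15 (median 9.52). F1 TN ranged from 9.24 to 12.46 and F1 HS from 7.64 to 10.59, with medians of 10.49 and 9.77. LW TN ranged from 9.64 to 11.53 and LW HS from 8.75 to 11.03. The groups overlapped in all 3 breeds.

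The KLF1 change was −0.72 ± 0.33 with O11579, with a 95% interval of −1.40 to −0.05 before adjustment (adjusted p = 0.086 by limma). It was −0.69 ± 0.35 with A_72_P441179 (adjusted p = 0.12) and −0.14 ± 0.15 with the dim A_72_P102121 (adjusted p = 0.49). Within slides the change of O11579 was negative on 4 of 4, between −1.28 and −0.01. Further probes of the array, listed under other names, were compared. One with the bases of A_72_P441179 correlated with it at r = 0.996, and one that overlaps O11579 by at least 20 bases did so at r = 0.997. Leaving out CR TN replicate 1 gave −0.87 (adjusted p = 0.031), and −0.84 (adjusted p = 0.043) with A_72_P441179, and leaving out CR HS replicate 4 gave −0.81 (adjusted p = 0.049). With the red cell marker mean as a covariate the sign turned, to 0.24 ± 0.13 (adjusted p = 0.26).

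EPOR, the receptor for erythropoietin, had the widest spread. Probe A_72_P177781 read 5.35, 7.01, 7.77, 8.92 and 9.10 in CR TN, and 5.44 to 8.64 in CR HS (median 6.21). In F1 TN it ranged from 6.08 to 10.46 and in F1 HS from 5.42 to 7.48, with medians of 7.31 and 7.14. In LW the TN pigs ranged from 6.89 to 8.41 and the HS pigs from 5.69 to 7.84. The groups overlapped in each breed.

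The EPOR change was −0.83 ± 0.37 (adjusted p = 0.075 by limma), and that of A_72_P441474 was −0.58 ± 0.27 (adjusted p = 0.094). Another probe with the bases of A_72_P177781 gave −0.87 ± 0.38 (adjusted p = 0.073) and correlated with it at r = 0.995. Within slides the change of A_72_P177781 was negative on 3 of 4, between −1.68 and 0.01. The call changed when CR TN replicate 1 was left out (−0.99, adjusted p = 0.028, and −0.69, adjusted p = 0.037, with A_72_P441474), as it did without CR HS replicate 2 (−0.94, adjusted p = 0.043) or F1 TN replicate 6 (−0.93, adjusted p = 0.045). With the red cell marker mean as a covariate the value was 0.10 ± 0.24 (adjusted p = 0.84).

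NFE2, the large subunit of the globin enhancer-binding dimer, and LMO2, the bridging protein of the GATA1 and TAL1 complex, were bright and did not pass. NFE2 averaged 12.73 ± 0.20 (SD, n = 5) in CR TN and 12.75 ± 0.67 (n = 6) in CR HS, 12.99 ± 0.37 and 12.35 ± 0.38 in F1, and 12.51 ± 0.22 and 12.51 ± 0.30 in LW. Its additive change was −0.21 ± 0.14 (adjusted p = 0.22 by limma), and within slides it was negative on 3 of 4, between −0.45 and 0.06. LMO2 averaged 12.03 ± 0.44 in CR TN and 12.14 ± 0.37 in CR HS, 11.70 ± 0.29 and 12.14 ± 0.42 in F1, and 11.88 ± 0.27 and 11.73 ± 0.39 in LW. It was the only one of the 22 probes with a positive additive change, 0.14 ± 0.12 (adjusted p = 0.40), and the value turned to −0.023 ± 0.15 without F1 pigs. Within slides it was positive on each of the 4, between 0.03 and 0.25. Another array probe that overlaps it by at least 20 bases gave 0.15 ± 0.13 and correlated with it at r = 0.96.

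The 3 probes of FOXO3, a forkhead factor used by many cell types besides red cells, gave different answers. The array describes O5860 as FOXO3 and the FOXO3B pseudogene, but A_72_P375183 and A_72_P440351 as FOXO3 alone. Whether O5860 measured FOXO3 alone was not tested. Probe O5860 fell by 1.07 ± 0.21 (adjusted p = 0.0016 by limma), whereas A_72_P375183 changed by −0.38 ± 0.19 (adjusted p = 0.11) and A_72_P440351 by −0.30 ± 0.16 (adjusted p = 0.13). With O5860 the CR TN pigs read 8.21, 8.54, 8.95, 9.33 and 9.80, and the CR HS pigs ranged from 6.94 to 9.08 with a median of 8.37. The F1 TN pigs lay between 9.40 and 9.75 and the F1 HS pigs between 6.95 and 8.53, without overlap. LW TN ranged from 7.93 to 9.89 and LW HS from 8.07 to 8.83.

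With O5860 16 of 18 HS pigs lay below the TN mean of their breed, against 14 of 18 with A_72_P375183. Within slides the change of O5860 was negative on 4 of 4, from −1.59 to −0.49, and that of A_72_P375183 on 4 of 4, from −0.42 to −0.20. Once group means were removed O5860 followed A_72_P375183 at r = 0.56, while A_72_P440351 followed it at r = 0.89. The difference between the probes was not tested.

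**Figure D2:**
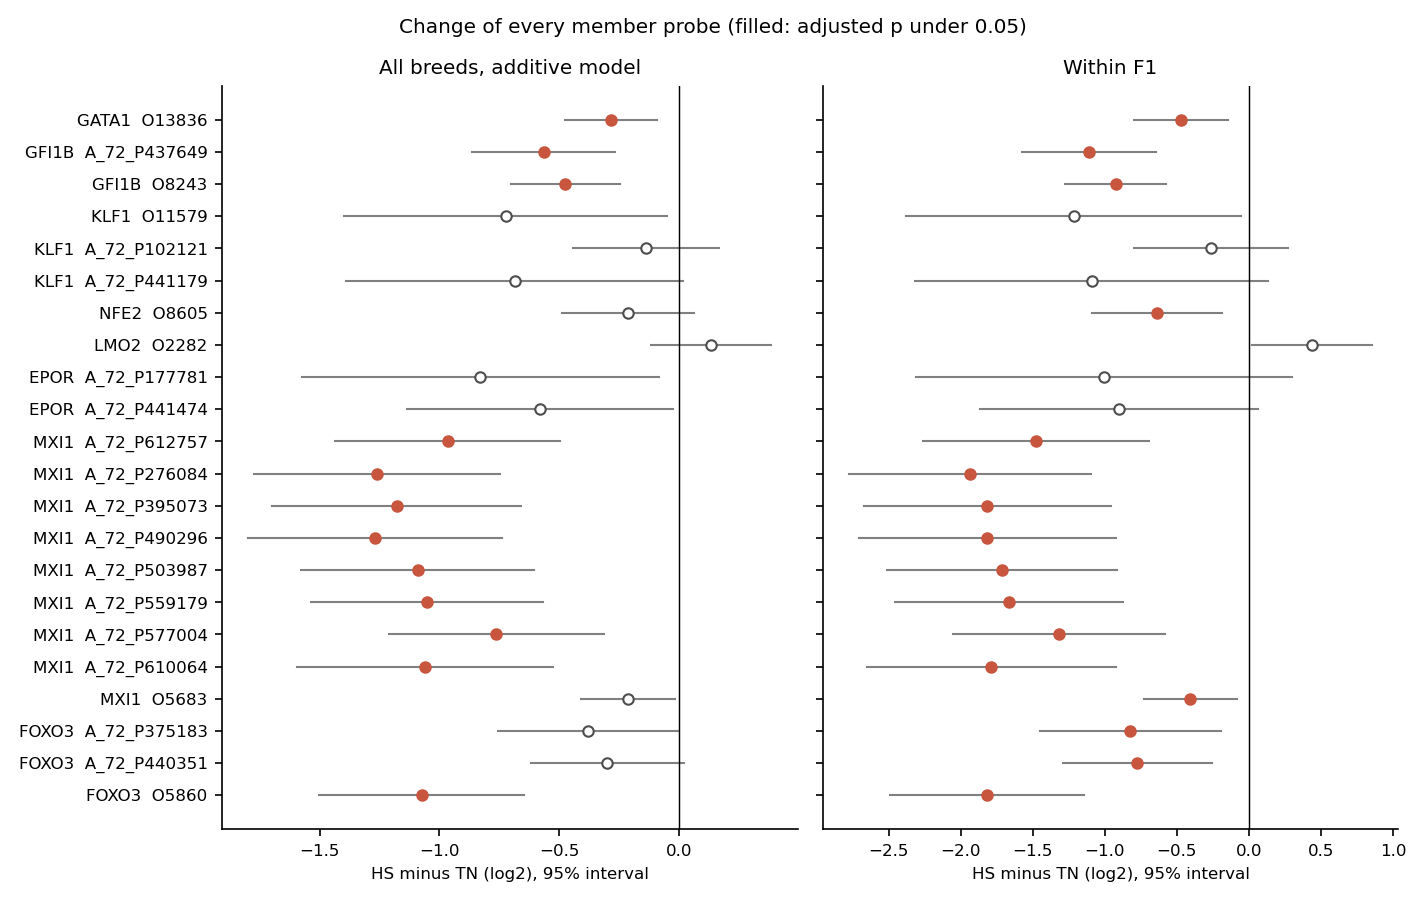
Change from TN to HS on the log2 scale (horizontal axis) with its 95% interval for each of the 22 probes (vertical axis), in the additive model over 35 pigs (left) and within F1 (right). Filled points passed an adjusted p of 0.05, and 12 probes on the left and 16 on the right did so, all to the left of 0.

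Within the breeds, members passed in F1 alone. In F1, 16 of the 22 probes were called, all lower in HS, and belonged to 5 genes (MXI1, FOXO3, GFI1B, NFE2 and the GATA1 probe). Of all probes in the table, 38.7% were called in F1 and 17.9% were called as lower. All 9 MXI1 probes passed, with changes from −1.94 to −0.41, as did all 3 FOXO3 probes (−1.82 ± 0.33 for O5860, adjusted p = 0.00025, and −0.82 ± 0.31 for A_72_P375183, adjusted p = 0.034). GFI1B changed by −1.11 ± 0.23 (adjusted p = 0.00061), a fold of 0.46. NFE2 changed by −0.64 ± 0.22 (adjusted p = 0.023) and the GATA1 probe by −0.47 ± 0.16 (adjusted p = 0.022). In 9 of the 22 probes, 6 of them MXI1, all F1 HS pigs lay below all F1 TN pigs, as they did in 8.08% of the table.

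KLF1 changed by −1.22 ± 0.57 in F1 (adjusted p = 0.088), EPOR by −1.01 ± 0.64 (adjusted p = 0.21) and LMO2 by 0.44 ± 0.20 (adjusted p = 0.086). KLF1 passed without F1 TN replicate 6 (−1.51, adjusted p = 0.038), as did EPOR A_72_P441474 (−1.19, adjusted p = 0.044). The change of EPOR A_72_P177781 did not pass without any single pig and ranged from −1.34 without F1 TN replicate 6 to −0.46 without F1 TN replicate 4. LMO2 passed without F1 HS replicate 3 (0.54, adjusted p = 0.047) or F1 TN replicate 5 (0.53, adjusted p = 0.046), and with slide as a block (0.52 ± 0.21, adjusted p = 0.049). Single pigs also mattered for the probes that passed. The GATA1 probe did not pass without F1 TN replicate 3 (−0.37, adjusted p = 0.070) or F1 HS replicate 6 (−0.41, adjusted p = 0.061). NFE2 did not without F1 HS replicate 2, F1 HS replicate 6 or F1 TN replicate 4, with values between −0.59 and −0.53. FOXO3 A_72_P375183 did not when any of 6 pigs was left out: F1 TN replicates 1, 2, 3 and 4 and F1 HS replicates 5 and 6, with values between −0.82 and −0.64. FOXO3 A_72_P440351 did not without F1 TN replicate 4 or F1 HS replicate 5 (−0.63 and −0.62). MXI1 O5683 did not without F1 TN replicate 1, 2, 3 or 4 or F1 HS replicate 3, 5 or 6, with values between −0.42 and −0.29.

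The F1 TN arrays were the dimmest of the 6 groups, and with log2 of the 75th percentile as a covariate 0 of the 22 probes passed in F1, as did 0 of the whole table. The MXI1 change was then −0.29 ± 0.33, that of GFI1B −0.42 ± 0.20 and that of FOXO3 A_72_P375183 0.13 ± 0.26. With the red cell marker mean as a covariate 3 of the 22 passed in F1, the 2 GFI1B probes and 1 FOXO3 probe. The share of the table in that fit is not given here. Brightness and climate differ together in F1, so their shares in these changes cannot be told apart by these fits.

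**Figure D3:**
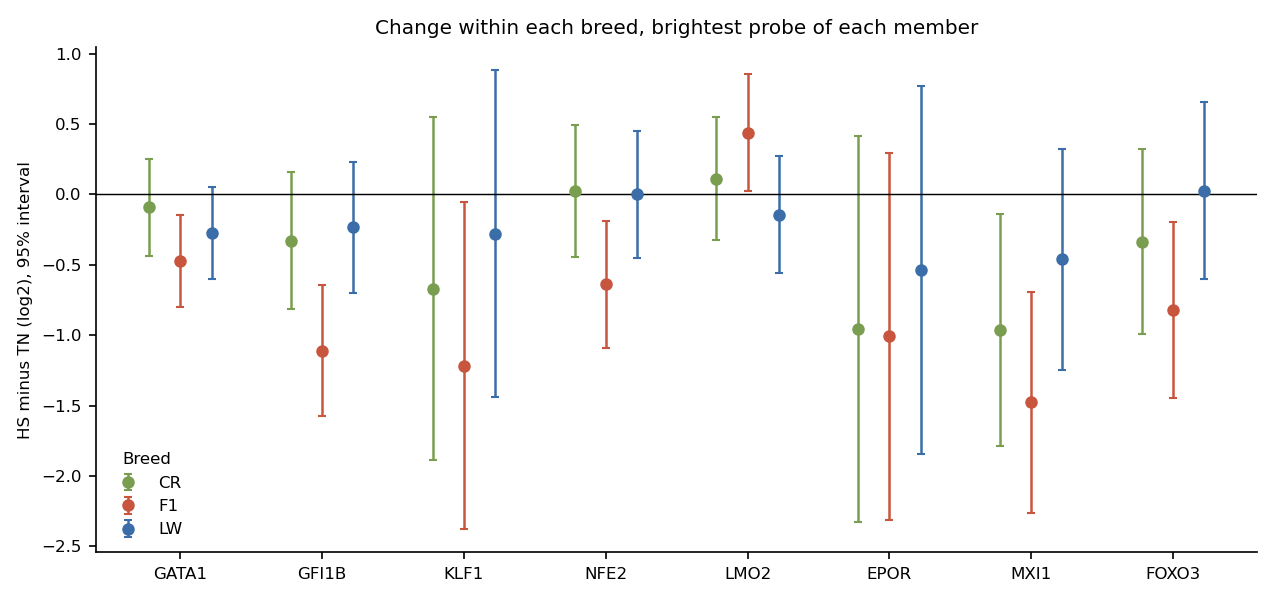
Change from TN to HS on the log2 scale (vertical axis) with its 95% interval for the brightest probe of each gene (horizontal axis) within CR, F1 and LW. The F1 estimate is the lowest of the 3 for 7 of the 8 genes, while for LMO2 it is the highest, and the intervals of the breeds overlap for each gene.

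In CR and in LW 0 of the 22 probes passed by limma, as did 0% of the table, and 9 and 0 of the 22 had an unadjusted p under 0.05. All changes of MXI1 in CR were negative, and that of its brightest probe was −0.96 ± 0.40 (adjusted p = 0.56), as large as in the additive model. In LW it was −0.46 ± 0.39 (adjusted p = 0.70). FOXO3 O5860 gave −0.73 ± 0.35 in CR (adjusted p = 0.56) and −0.64 ± 0.33 in LW (adjusted p = 0.58). NFE2 gave 0.03 ± 0.23 in CR (adjusted p = 0.98), and its LW groups had the same mean to 2 decimals.

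The breed by climate interaction was not significant for any member: 0 of the 22 probes passed by limma, as did 0% of the table, and 3 of 22 had an unadjusted p under 0.05. The F1 change minus the LW change was −0.88 ± 0.32 for GFI1B (adjusted p = 0.13), −1.01 ± 0.55 for MXI1 (adjusted p = 0.26) and −0.64 ± 0.31 for NFE2 (adjusted p = 0.22). The F1 change minus the CR change was −0.78 ± 0.33 for GFI1B (adjusted p = 0.40). In the comparisons of the changes of 2 breeds 0 of the 22 passed for each pair, as did 0% of the table, with 11 (F1 and LW), 4 (F1 and CR) and 0 (LW and CR) at an unadjusted p under 0.05. With array weights, 2 of the 22 probes passed for F1 and LW, both of them GFI1B (−0.89 ± 0.27, adjusted p = 0.039, and −0.73 ± 0.22, adjusted p = 0.041), against 9.99% of the table. In the main fit the larger changes of F1 were not shown to differ from those of LW or of CR for any member. The 2 GFI1B probes that passed with array weights are 1 sequence printed under 2 names, and their share was near that of the table.

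Over both climates no member passed between breeds. For CR minus LW, F1 minus CR and F1 minus LW 0 of the 22 probes passed by limma, against 1.08%, 0.184% and 0.0256% of the table, and 0 of 22 had an unadjusted p under 0.05 in each. The largest of the brightest-probe differences between CR and LW was that of LMO2, 0.28 ± 0.15, with a 95% interval of −0.03 to 0.59 (adjusted p = 0.57). For MXI1 it was −0.01 ± 0.28, with an interval of −0.59 to 0.57, so differences of that size would not have been found. F1 TN had the highest group mean for 7 of the 8 genes, all but LMO2, and F1 HS the lowest for 6. Of the 40 steps between neighbours in these orders of group means, 3 exceeded the smaller SD of the 2 groups, 1 each for GFI1B, NFE2 and MXI1.

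The lists of related genes are given beside the whole table, in which 20.1% of the probes were called higher in HS and 14.7% lower, with a median change of 0.06. Of 28 listed targets of GATA1, TAL1 and KLF1, 19 were measured, 10 were lower in HS, 1 was higher and 8 did not pass, with a median change of −0.74. EPB42 (−0.92 ± 0.20, adjusted p = 0.0020 by limma) and EPB41 (−0.88 ± 0.20, adjusted p = 0.0022) encode proteins of the red cell membrane skeleton. UROD (−0.74 ± 0.18, adjusted p = 0.0033) and ALAS2 (−0.74 ± 0.19, adjusted p = 0.0040) encode enzymes of haem synthesis, ALAS2 its first step in red cells. The target that rose was SLC4A1 (0.27 ± 0.10, adjusted p = 0.039), the band 3 anion exchanger, named after its value was seen. Of the 16 measured red cell markers, 6 were lower and 1 was higher in HS (median −0.50), and 11 of the 19 targets are also in that marker list. Among the markers that fell were CA1, a red cell carbonic anhydrase (−1.41 ± 0.35, adjusted p = 0.0034), and HEMGN, a nuclear protein of red cell precursors (−1.25 ± 0.32, adjusted p = 0.0048).

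Of the partners and cofactors of the GATA1 and TAL1 complexes, 15 of 18 listed were measured, and most of them, 9, did not pass. Of the rest 5 were higher and 1 was lower in HS, with a median of 0.12 over the 15, close to that of all probes (0.06). CHD4, the remodelling subunit of the NuRD complex, rose by 0.56 ± 0.11 (adjusted p = 0.0016 by limma), TCF3, an E protein that pairs with TAL1, by 0.34 ± 0.08 (adjusted p = 0.0025) and RCOR1, a corepressor, by 0.31 ± 0.09 (adjusted p = 0.0099). SSBP2, which stabilises LDB1 complexes, fell by 0.36 ± 0.11 (adjusted p = 0.014). These cofactors are expressed in most white cells as well.

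Among 6 measured partners and relatives of NFE2, of 9 listed, 2 fell, 1 rose and 3 did not pass. NFE2L2, the NRF2 regulator of antioxidant genes, fell by 0.43 ± 0.09 (adjusted p = 0.0019 by limma) and MAFG, a small MAF partner of NFE2, by 0.33 ± 0.11 (adjusted p = 0.020). NFE2L1 rose by 0.38 ± 0.08 (adjusted p = 0.0020), and BACH1, a haem-sensing repressor, gave 0.24 ± 0.13 (adjusted p = 0.16).

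Of 12 measured other regulators of the lineage, of 16 listed, 5 were lower, 0 were higher and 7 did not pass, with a median of −0.06. GATA2, which precedes GATA1 in progenitors and is also used by basophils and mast cells, fell by 0.68 ± 0.17 (adjusted p = 0.0039 by limma). ZBTB7A and BCL11A, both repressors of fetal globin genes, fell by 0.43 ± 0.12 (adjusted p = 0.0068) and 0.28 ± 0.10 (adjusted p = 0.028). SOX6, a partner of BCL11A in definitive red cells, fell by 1.02 ± 0.33 (adjusted p = 0.019).

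Genes of erythropoietin receptor signalling split. Of 15 measured, of 20 listed, 5 were higher, 3 lower and 7 did not pass, with a median of 0.16. CISH, a feedback inhibitor induced by STAT5, fell by 1.14 ± 0.22 (adjusted p = 0.0016 by limma). The other genes that fell, named after their values were seen, were BCL2L1, the BCL-XL survival factor (−0.80 ± 0.22, adjusted p = 0.0077), and PIM1, a survival kinase (−0.71 ± 0.20, adjusted p = 0.0077). The adaptor SHC1 rose by 0.24 ± 0.06 (adjusted p = 0.0028), the ubiquitin ligase CBL by 0.37 ± 0.09 (adjusted p = 0.0033) and the transcription factor STAT5A by 0.29 ± 0.07 (adjusted p = 0.0041). The receptor itself did not pass.

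In the MYC and MAX network, in which MXI1 acts, 2 of 9 measured genes, of 13 listed, were lower and 1 was higher. MAX, the common partner of MYC and MXI1, fell by 0.51 ± 0.12 (adjusted p = 0.0027 by limma) and MLXIPL, a glucose-responsive factor, by 0.29 ± 0.08 (adjusted p = 0.0094). MGA, a MAX-binding repressor, rose by 0.20 ± 0.08 (adjusted p = 0.046), and MLXIP gave 0.15 ± 0.08 (adjusted p = 0.15). Of 21 measured FOXO genes and targets, of 25 listed, 5 were lower, 0 higher and 16 did not pass, with a median of −0.21. BNIP3L, which clears mitochondria from maturing red cells, fell by 0.75 ± 0.20 (adjusted p = 0.0060), the kinase SGK1 by 0.58 ± 0.19 (adjusted p = 0.016), the stress protein SESN3 by 0.26 ± 0.09 (adjusted p = 0.030) and FOXO4 by 0.35 ± 0.13 (adjusted p = 0.034).

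**Figure D4:**
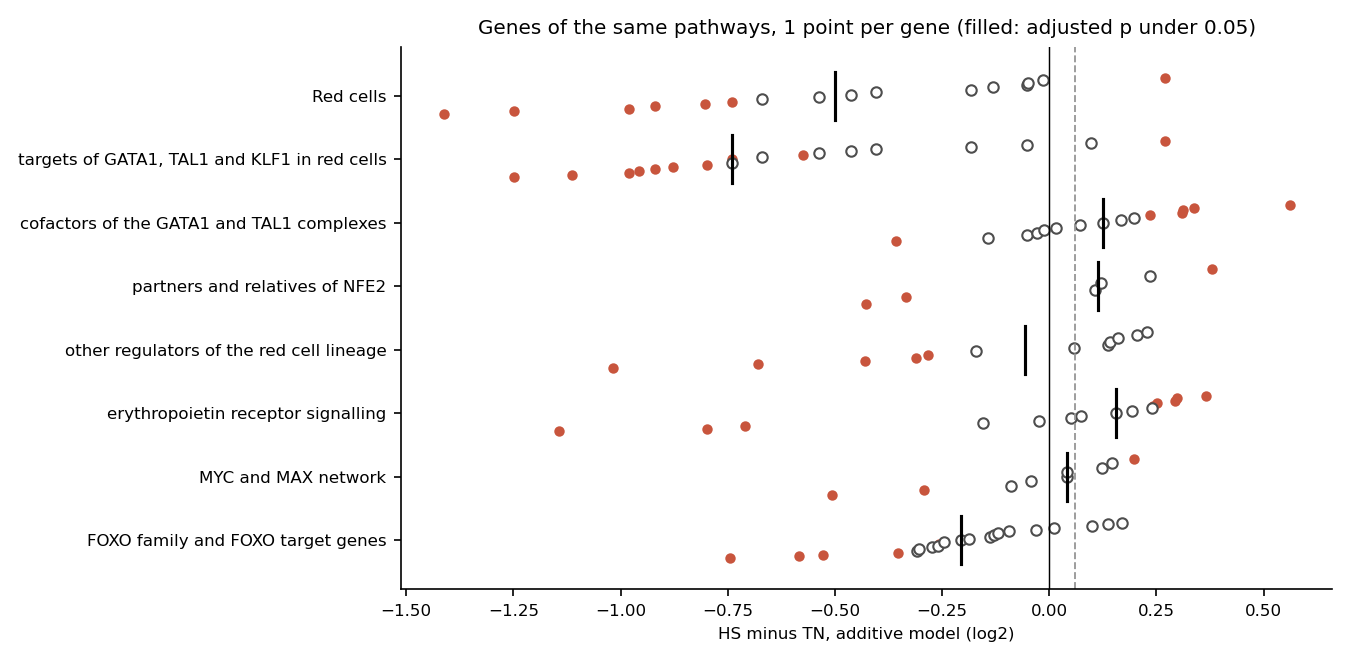
Additive change from TN to HS on the log2 scale (horizontal axis), 1 point per measured gene, for the red cell markers and 7 lists of related genes (vertical axis). Filled points passed an adjusted p of 0.05, black bars are list medians and the dashed line is the median of all probes (0.06). The targets have the lowest median (−0.74) and erythropoietin receptor signalling the highest (0.16).

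Pigs also differed within groups, and these differences were examined with the group means removed (35 pigs, brightest probes, permutation tests within groups, two-sided, 100000 resamples, p adjusted over the comparisons of each family). KLF1 followed the red cell markers most closely, with r = 0.95 (rho = 0.96), and r = 0.94 without the 2 pigs farthest from its median. EPOR did so with r = 0.85 (rho = 0.86). FOXO3 (r = 0.75, rho = 0.77) and MXI1 (r = 0.74, rho = 0.71) followed them less closely, and r was 0.74 and 0.67 without 2 pigs. The FOXO3 probe here is A_72_P375183. O5860, the FOXO3 probe that passed in the additive model, gave r = 0.31 with the markers, which was not tested. The raw p was 1e-05 for r of KLF1, EPOR and FOXO3, the smallest that the permutations can give, and 2e-05 for MXI1 (adjusted p = 2.67e-05 and 4e-05 over 8 comparisons). NFE2 gave r = 0.68 and rho = 0.71 (permutation p = 0.00019, adjusted p = 0.000304) and GFI1B r = 0.49 and rho = 0.46 (permutation p = 0.012, adjusted p = 0.016). The second print of the GFI1B sequence, O8243, gave only r = 0.26 with the markers, which was not tested.

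The GATA1 probe did not follow the red cell markers (r = −0.04, rho = −0.09, permutation p = 0.83, adjusted p = 0.83), and LMO2 gave r = −0.29 and rho = −0.20 (permutation p = 0.13, adjusted p = 0.15). Among the other members, the GATA1 probe correlated best with GFI1B, with r = 0.51 and rho = 0.47 (permutation p = 0.0075 and 0.011, adjusted p = 0.053 and 0.078 over 7 comparisons), and 0.53 without 2 pigs. Its r was −0.13 with KLF1 (permutation p = 0.51, adjusted p = 0.59) and −0.26 with EPOR (permutation p = 0.18, adjusted p = 0.34). For NFE2, LMO2, MXI1 and FOXO3 r lay between −0.05 and 0.25 and the smallest adjusted p was 0.34.

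Array brightness moved with several members within groups. The r with log2 of the 75th percentile was −0.75 for GFI1B (rho = −0.78), −0.74 for MXI1 (rho = −0.77) and −0.75 for FOXO3 (rho = −0.72), each with an adjusted permutation p of 8e-05 over 8 comparisons, and without the 2 pigs farthest from the median r was −0.74, −0.75 and −0.71. For the GATA1 probe r was −0.46 (rho = −0.38, permutation p = 0.015, adjusted p = 0.024). NFE2 gave −0.47 (rho = −0.39, permutation p = 0.014, adjusted p = 0.024), KLF1 −0.42 (rho = −0.38, permutation p = 0.034, adjusted p = 0.045) and EPOR −0.27 (rho = −0.23, permutation p = 0.20, adjusted p = 0.20). LMO2 went the other way, with r = 0.38 (rho = 0.37, permutation p = 0.044, adjusted p = 0.0498). These p values are of r. For rho the adjusted p of the GATA1 probe, NFE2, KLF1 and LMO2 was 0.054. FOXO3 O5860 gave r = −0.56 and GFI1B O8243 r = −0.60, which were not tested. The red cell markers themselves gave r = −0.48 with brightness.

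**Figure D5:**
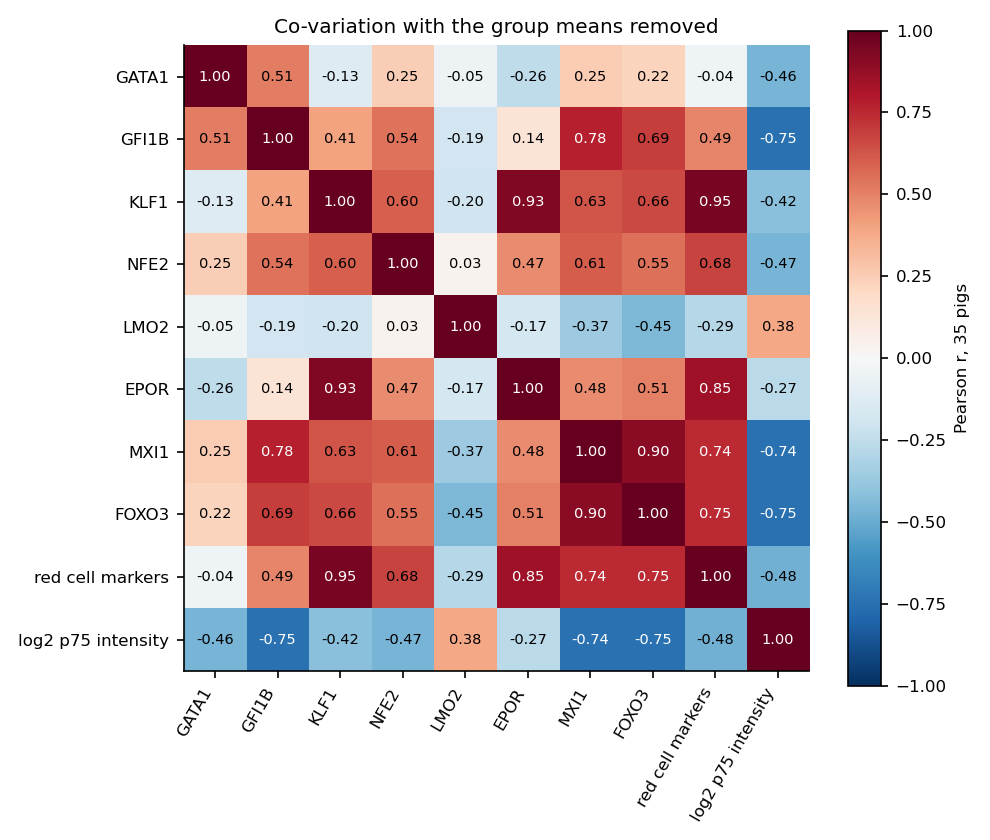
Pearson r over 35 pigs, with group means removed, between the brightest probes of the 8 genes, the mean of the red cell markers and log2 of the 75th percentile of array intensity (both axes, colour scale from −1 to 1). KLF1 and EPOR are the closest to the red cell markers (r = 0.95 and 0.85), and MXI1 and FOXO3 to each other (r = 0.90). These are not separate blocks, since MXI1 and FOXO3 have r = 0.74 and 0.75 with the markers. NFE2 has r = 0.68 with the markers, and GFI1B r = 0.78 with MXI1. The GATA1 probe and LMO2 have r = −0.04 and −0.29 with the markers.

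The genes with the most similar pattern were sought among the brightest probes of 8593 other named genes, again with group means removed over 35 pigs. For KLF1 they were ANK1, the ankyrin of the red cell membrane (r = 0.95), and PHACTR3 (r = 0.95), and for EPOR they were PLEK2 (r = 0.96) and CYP27A1 (r = 0.95). MXI1 and FOXO3 shared NCOA4, the ferritinophagy receptor (r = 0.94 and 0.93). The second was UBE2R2 for MXI1 (r = 0.93) and SOX6 for FOXO3 (r = 0.92). For GFI1B they were SPOCK1 (r = 0.98) and GRINA (r = 0.97), and for NFE2 CD82 (r = 0.88) and CCRL2 (r = 0.84). The GATA1 probe was nearest to BHLHE22 (r = 0.88) and ETS2 (r = 0.82), neither of them a red cell marker. LMO2 was nearest to BLNK, a B cell adaptor (r = 0.73), and SLA-DOB, an MHC class II gene of B cells (r = 0.70).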

How the data were processed

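Whole blood RNA of 35 pigs was hybridised to 1-colour Agilent porcine arrays (60305 distinct probes). According to the methods, the authors took median pixel intensity from Feature Extraction 10.10.1.1, quantile-normalised the arrays, took log2 and filtered dim probes by a rule not given in the sources used here. The deposited log2 values of 39072 probes were used throughout. The deposited scanner intensity files gave probe names, sequences and brightness, and recomputed log2 values correlated with the table at r = 0.99987 or more. Of the array features, 0 non-control spots were saturated. The number of arrays limits the precision.

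Members were probes whose gene name, in capitals, equals 1 of 10 symbols. The members and gene lists were chosen with earlier results of these data known. limma 3.58.1 in R 4.3.3 fitted breed plus climate, and 6 group means for changes within breeds and the interaction, with Benjamini-Hochberg adjustment over all probes and a threshold of 0.05. The study's random effects (pen, slaughter day, parents) are not in the labels and were not fitted. With them, the study reported far fewer probes called in blood than were called here. The fit was tested on simulated data with independent noise for each probe and pig. That test cannot show the effect of shared litters, pens, slaughter days or array brightness. All members were named, with every probe. The brightest probe over 35 pigs represents a gene, and from each list the 4 genes of smallest p for climate were named, whatever their direction, as were the 2 genes most correlated with each member. Correlations used Python 3.11.15 and SciPy 1.17.1.

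Alternatives were the recomputed values, scaling on the 75th percentile, normexp background correction (offset 50), other filters, slide as a block, array weights, brightness or red cell markers as a covariate, leaving out a breed and leaving out each pig. Genome coordinates are not given, since the files name no build.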

Additional observations from a re-analysis of the deposited data

How the results depend on the processing

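Over the other settings the count of member probes called between HS and TN (12) ranged from 10 to 13, except with the red cell marker mean as a covariate and without F1 pigs, where it was 0 in each case. The count within F1 (16) ranged from 15 to 17, except with brightness as a covariate (0) and with the red cell markers (3). Leaving out each pig gave 12 to 16 and 12 to 18. For most alternatives the share of the whole table called is not given here, so these counts are not particular to the members. Counts in CR, in LW, in the interaction and between breeds were 0 under all alternatives run. For the differences between the changes of 2 breeds, whose alternatives were added after seeing the data, they were 0 too, except for F1 and LW with array weights (2). With the red cell markers as a covariate the additive log2 change of the brightest probe turned sign for KLF1 (0.24), NFE2 (0.080), EPOR (0.10) and FOXO3 (0.057). In the same fit the F1 change turned for KLF1 (0.59) and EPOR (0.80). Without F1 pigs the additive change turned for NFE2 (0.013) and LMO2 (−0.023), and with brightness the F1 change turned for FOXO3 (0.13). These FOXO3 values are of A_72_P375183, which did not pass in the additive model, and not of O5860, which did. The cause was not tested. No analysis paired or blocked by litter was possible, because the sample labels name neither litter nor pen. The replicate numbers used here only follow the order of deposition.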

Other observations

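Markers of the other blood cells were taken from lists chosen like those of the report, and over all probes 20.1% were called higher and 14.7% lower in HS. Of 10 measured T cell markers 3 were higher in HS, CD5 (0.45 ± 0.12, adjusted p = 0.0058 by limma), CD4 (0.31 ± 0.10, adjusted p = 0.015) and CD2 (0.33 ± 0.11, adjusted p = 0.022), and 7 did not pass. Of 5 B cell markers MS4A1 (0.38 ± 0.14, adjusted p = 0.034) and CD79B (0.35 ± 0.14, adjusted p = 0.045) were higher, and of 7 monocyte markers CSF1R (0.51 ± 0.11, adjusted p = 0.0016) and VCAN (0.48 ± 0.16, adjusted p = 0.023) were. Of 10 neutrophil markers 0 passed by limma and 1, ELANE, had an unadjusted p under 0.05 (−0.28 ± 0.11, adjusted p = 0.055), and their median was −0.27.

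Platelets and megakaryocytes use GFI1B, NFE2 and GATA1 as well. Of 8 measured platelet markers 1 was lower in HS, THBS1 (−0.57 ± 0.14, adjusted p = 0.0028), which other cells also express, 0 were higher, and the median was 0.21. Basophils, eosinophils and mast cells use GATA factors, and of their 4 measured markers CCR3 was lower (−0.46 ± 0.17, adjusted p = 0.032). Of 6 natural killer and cytotoxic markers KLRK1 was lower (−0.75 ± 0.29, adjusted p = 0.044).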
